A study of Mus musculus with 24 samples.

Results

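The genes of the major histocompatibility complex (MHC, named H2 in the mouse) and of antigen processing were followed in adult hearts of mice with or without a mutant thyroid hormone receptor α1 and with or without exposure to thyroid hormone (T3) before birth. They were taken by name: every gene whose symbol begins with H2-, together with B2m, Ciita, Tap1, Tap2, Tapbp, Psmb8, Psmb9, Psmb10, Psme1 and Psme2. This gave 45 of 19505 named genes on the array, which were 26 class I genes, 10 class II genes, 8 processing genes and H2-Ke6, a steroid dehydrogenase gene that lies in the complex and carries its prefix but presents no antigen. Cd74 and Nlrc5 were not analysed here. A gene was tested where the log2 mean of any group exceeded 4, which 43 of the 45 did and H2-M10.6 and H2-Bl did not. The rule used no difference between groups, but the genes were chosen with earlier results of these data known. A gene with several probe sets was represented by the one with the highest mean over all arrays.

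Class I molecules, a heavy chain such as H2-K1 or H2-D1 with the light chain B2m, sit on almost every nucleated cell and show peptides of the cell's own proteins to cytotoxic T cells. Class II molecules, an α and a β chain such as H2-Aa and H2-Ab1, are made mainly by macrophages, dendritic cells and B cells, and show peptides of engulfed protein to helper T cells. Immunoproteasome subunits (Psmb8, Psmb9, Psmb10) and their activator (Psme1, Psme2) cut proteins into peptides, the transporter Tap1-Tap2 and its partner tapasin (Tapbp) load them on class I, and H2-DM loads class II. Interferon gamma switches on both sets, and Ciita is the master switch of class II genes. Mice of the C57BL/6 background lack a working H2-Ea chain, so that H2-Eb1, although transcribed, has no partner for a surface molecule.

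RNA of whole hearts from 24 male C57/BL6NCr mice, 4 to 5 months old and kept at 22 °C, was measured on one array each, 6 mice to a group. There were 4 groups, of TRα1+/m mice, heterozygous for the receptor mutation TRα1R384C, and of wild-type mice, whose mothers drank either T3 at 0.5 mg/L with 0.01% albumin, beginning on embryonic day 12.5 and ending on day 18.5, or water with 0.01% albumin only (H2O). These days are those of the sample labels, and the study's methods give an earlier last day. The offspring themselves were never treated, and the mutation is in the germline and so in every cell of the heart, not in heart muscle alone. Which mice shared a mother was not given, so the p-values treat mice as independent. Values are log2 expression on the array's scale, on which a difference of 1 is a doubling and values of different genes cannot be set against each other.

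The 24 arrays correlated with each other at 0.969 to 0.99, and their median log2 values lay between 6.85 and 6.95. Defining genes of heart muscle averaged 18.06 to 18.44 in every mouse. On the first principal component of all tested genes, which held 17.5% of the variance, 5 mice stood apart: TRα1+/m mice 16 and 17 and wild-type mice 14 and 15 of the T3 groups, and H2O TRα1+/m mouse 4 (mice are named by the numbers in their labels). These 5 all have label numbers of 17 or below. Such numbers were carried by 2 T3 TRα1+/m, 3 T3 wild-type, 3 H2O TRα1+/m and 1 H2O wild-type mice, the other 15 mice having numbers of 37 or above. The meaning of the numbers is not stated. Wild-type mouse 15 (T3) and TRα1+/m mouse 16 (T3) touch most results below.

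Before the values, start regions are shown, because class II genes share a promoter of ordered boxes and classical class I genes an enhancer. Windows of 300 bases across the gene start (RefSeq, GRCm38.p6) were at hand for 37 of the 45 genes, but not for H2-Ab1 or Ciita. Of the called class II genes, H2-Eb1, H2-Aa and H2-DMb2 are shown, with H2-Eb2 and H2-DMb1 as relatives of H2-Eb1 and H2-DMb2. Searched letters, on both strands, were GATTGG for the Y box, GCAAC, any base and GATG for the X box, GGG, any 3 bases and TCCC for NF-kB, GAAA, any 2 bases and GAAA for the interferon element, and TTCNNNGAA with its narrower form TTCCNNGAA for the STAT element. The stretches of 57 bases are set so that the Y box, in capitals, is in the same place in each, and a match to the X box is in capitals too.
H2-Eb1: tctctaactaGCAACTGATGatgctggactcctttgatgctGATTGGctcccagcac
H2-Eb2: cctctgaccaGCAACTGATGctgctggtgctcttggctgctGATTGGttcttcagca
H2-Aa: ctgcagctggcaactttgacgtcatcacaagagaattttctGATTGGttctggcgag
H2-DMb2: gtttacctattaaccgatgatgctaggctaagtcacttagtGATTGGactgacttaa
H2-DMb1: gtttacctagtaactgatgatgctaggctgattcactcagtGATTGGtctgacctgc
They lie at chr17:34305766-34305822 (plus strand), chr17:34325533-34325589 (plus), chr17:34287857-34287913 (minus), chr17:34145117-34145173 (plus) and chr17:34153088-34153144 (plus), in that order, with the Y box starting 60, 101, 49, 91 and 62 bases before the transcript start on which the window is set. For H2-Eb2 and H2-DMb2 that start, and the stretch shown, lie inside the gene's annotated span. A gene with several windows was counted once, as holding the letters if any of its windows did. Counted so, the Y box letters were in 8 of 8 class II genes, 16 of 21 class I genes and 2 of 7 processing genes with a window, against 18.2% of 27025 genes. The processing genes, Psmb9 and Tap1, share the same site, read on opposite strands. Among the class I genes only B2m and H2-T22 held the letters on the gene's own strand, as in the stretches shown. H2-DMa held them in one of its windows and not in the other. The strict X box letters were in H2-Eb1 and H2-Eb2 alone of the 37, against 0.215% of all genes, and in both genes 21 bases lie between the boxes. A match to these letters is a description of the sequence and not evidence that a factor binds there.

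For the class I genes, the NF-kB match (capitals) is shown for the classical heavy chains and for H2-Q4, and the interferon element of B2m below them.
H2-K1: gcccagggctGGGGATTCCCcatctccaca
H2-D1: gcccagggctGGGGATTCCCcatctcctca
H2-Q4: atcaggggtgGGGATTTCCCatctccccag
B2m: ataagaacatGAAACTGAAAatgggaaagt
These are at chr17:34000439-34000468 (minus), chr17:35262913-35262942 (plus), chr17:35379434-35379463 (plus) and chr2:122147538-122147567 (plus). The match of H2-K1 starts 111 or 125 bases before the transcript start, depending on the window, and its stretch lies inside the gene's annotated span. In H2-K1 and H2-D1 a second match on the other strand overlaps the first by all but 1 base. NF-kB letters were in 3 of 21 class I genes with a window (these 3), in 2 of 8 class II genes (H2-Aa and H2-Oa) and in 0 of 7 processing genes, against 6.32% of all genes. Interferon element letters were in B2m, H2-T22, H2-T23 and Psme1, against 3.99% of all genes, and the wider STAT letters in H2-DMb2, H2-M11, H2-M3 and Psmb8, against 9.55%.

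Most of the called differences were in class II genes between the genotypes. Over both treatments (12 TRα1+/m against 12 wild-type mice), 4 of the 10 class II genes were lower in TRα1+/m hearts and 0 were higher: H2-Eb1 by 2.0-fold, H2-Aa by 1.99-fold, H2-DMb2 by 1.47-fold and H2-Ab1 by 1.45-fold. With the class I gene H2-Q4, lower by 1.84-fold, they made 5 of 43 genes lower and 0 higher, 11.6% of those tested, against 3.7% of all 19801 genes called lower, 2.59% called higher and 6.28% called in either direction. Since whole hearts were measured, fewer cells of a type and less RNA per cell cannot be told apart.

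H2-Eb1, a class II β chain (chromosome 17, 34305867 to 34316674, plus strand), had the lowest adjusted p of the 43 genes. After maternal T3 its log2 value was 7.03, 7.48 and 7.70 (lowest, median, highest) in TRα1+/m and 7.97, 8.29 and 10.15 in wild-type mice. Without T3 it was 6.93, 7.24 and 7.36 in TRα1+/m and 7.65, 8.09 and 8.38 in wild-type mice. Within each treatment every TRα1+/m mouse was below every wild-type mouse, and over all 144 pairs across treatments 1 went the other way. The log2 change was -1.0 ± 0.17 over both treatments (SE, adjusted p = 0.000283), -1.17 ± 0.24 after maternal T3 (adjusted p = 0.00501) and -0.83 ± 0.24 without T3 (adjusted p = 0.0869).

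H2-Aa, the class II α chain of I-A (chromosome 17, 34282744 to 34287823), had 7.43, 7.98 and 8.39 in TRα1+/m and 8.30, 8.89 and 10.78 in wild-type mice after maternal T3. Without T3 it had 7.21, 7.36 and 8.20 in TRα1+/m and 8.25, 8.33 and 8.63 in wild-type mice. The H2O groups did not overlap, and in the T3 groups 2 of 36 pairs had the TRα1+/m mouse higher. Its log2 change was -0.99 ± 0.20 over both treatments (adjusted p = 0.00187), -1.10 ± 0.28 after maternal T3 (adjusted p = 0.0295) and -0.88 ± 0.28 without T3 (adjusted p = 0.131). The call after maternal T3 was lost without wild-type mouse 46 or without any one of TRα1+/m mice 49, 50 and 51, with an adjusted p of up to 0.0792, and in the fit of the 12 T3 arrays alone (adjusted p = 0.145).

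H2-Ab1, the β chain that pairs with H2-Aa (chromosome 17, 34263227 to 34269418), had a smaller change, whose difference from that of H2-Aa was not tested. It had 8.34, 8.68 and 9.27 in T3-exposed TRα1+/m against 8.65, 9.47 and 10.03 in T3-exposed wild-type mice, and 8.08, 8.51 and 8.71 in H2O TRα1+/m against 8.44, 9.01 and 9.25 in H2O wild-type mice. The groups overlapped under both treatments. The change over both was -0.54 ± 0.14 (adjusted p = 0.0208), with -0.66 after maternal T3 (adjusted p = 0.0832) and -0.42 without T3 (adjusted p = 0.433).

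H2-DMb2, a β chain of the H2-DM molecule that exchanges class II peptides (chromosome 17, 34143229 to 34151553), had 5.08, 5.16 and 5.51 in T3-exposed TRα1+/m against 5.15, 5.78 and 6.70 in T3-exposed wild-type mice, and 4.77, 5.19 and 5.58 in H2O TRα1+/m against 5.34, 5.73 and 6.16 in H2O wild-type mice. TRα1+/m mice were the lower ones in both, with some overlap. The change over both treatments was -0.56 ± 0.14 (adjusted p = 0.0117), nearly the same after maternal T3 (-0.57) as without it (-0.55). H2-DMb2 and H2-Ab1 no longer passed when the 5 mice that stand apart were left out, or when only label numbers of 37 and above were used (adjusted p up to 0.324 and 0.133).

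**Figure D1:**
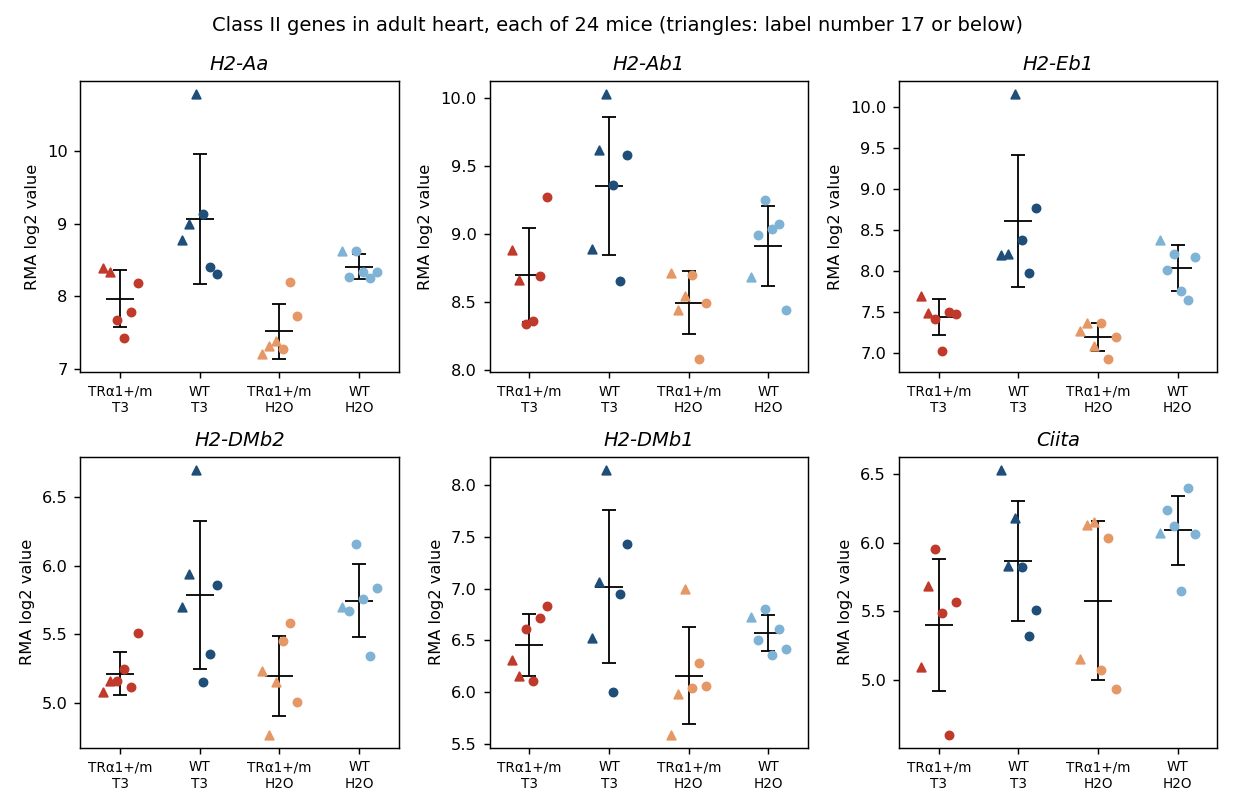
RMA log2 values of 6 class II genes in each of 24 hearts (points, triangles for label numbers of 17 or below), with the mean and SD of each group of 6 mice. In H2-Eb1 the TRα1+/m mice (6.93 to 7.70) lie below the wild-type mice of their own treatment (7.65 to 10.15), and wild-type mouse 15 is the highest in 5 of the 6 panels, all but that of Ciita.

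The other 6 class II genes did not pass the test. Ciita, the transcriptional master switch, averaged 5.40 ± 0.48 in T3-exposed TRα1+/m against 5.87 ± 0.44 in T3-exposed wild-type mice, and 5.58 ± 0.58 in H2O TRα1+/m against 6.09 ± 0.25 in H2O wild-type mice (SD, n = 6 each). Its change over both treatments was -0.49 (adjusted p = 0.101), and in the H2O TRα1+/m group the 6 mice formed 2 sets of 3, at 4.93 to 5.15 and at 6.03 to 6.15. H2-DMb1, the other DM β chain, had a change of -0.49 (adjusted p = 0.118). H2-Eb2, which carries the same X and Y box letters as H2-Eb1, had values of 3.42 to 4.99 over all mice, around the limit of 4, and a change of -0.12 (95% interval -0.41 to 0.16). H2-DMa, the α chain of H2-DM, averaged 4.50 ± 0.47 in T3-exposed TRα1+/m against 4.68 ± 0.56 in T3-exposed wild-type mice, and 4.68 ± 0.43 in H2O TRα1+/m against 4.67 ± 0.42 in H2O wild-type mice, with a change of -0.09. H2-Oa, a subunit of H2-DO that restrains H2-DM, was the one class II gene with a positive value, 0.25 (adjusted p = 0.282), and averaged 4.51 ± 0.35 in T3-exposed TRα1+/m against 4.26 ± 0.37 in T3-exposed wild-type mice, and 4.81 ± 0.21 in H2O TRα1+/m against 4.55 ± 0.23 in H2O wild-type mice. H2-Ob, the β chain of H2-DO, had -0.17.

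Among class I genes, 21 of 24 had a negative genotype change over both treatments and 1 passed. That gene was H2-Q4, a non-classical heavy chain of the Q region (chromosome 17, 35379617 to 35384674, plus strand). It had 6.46, 7.48 and 7.87 in T3-exposed TRα1+/m against 7.41, 7.86 and 9.72 in T3-exposed wild-type mice, and 6.22, 6.56 and 7.17 in H2O TRα1+/m against 7.26, 7.58 and 8.06 in H2O wild-type mice. The H2O groups did not overlap and the T3 groups did. The change was -0.88 ± 0.21 over both treatments (adjusted p = 0.00922), -0.75 after maternal T3 (adjusted p = 0.224; -0.43 without wild-type mouse 15) and -1.01 without T3 (adjusted p = 0.0918). Class I heavy chains are near copies of each other, and how far a probe set reads a neighbour's transcript was not tested.

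H2-K1, the classical K heavy chain (chromosome 17, 33996012 to 34000619), had 11.53, 12.32 and 13.45 in T3-exposed TRα1+/m against 12.08, 12.42 and 14.34 in T3-exposed wild-type mice, and 11.11, 11.42 and 11.65 in H2O TRα1+/m against 11.96, 12.12 and 12.56 in H2O wild-type mice. The H2O groups were wholly apart, while the T3 groups largely shared their range. Its genotype change was -0.61 ± 0.21 over both treatments (adjusted p = 0.0835), -0.41 after maternal T3 (adjusted p = 0.61) and -0.81 without T3 (adjusted p = 0.212). The value after maternal T3 was -0.09 without wild-type mouse 15 and -0.63 without TRα1+/m mouse 16. H2-D1, the D heavy chain (chromosome 17, 35263094 to 35267497), had 7.26, 7.71 and 9.43 in T3-exposed TRα1+/m against 7.58, 8.15 and 9.86 in T3-exposed wild-type mice, and 6.75, 6.89 and 7.5 in H2O TRα1+/m against 7.46, 7.75 and 7.89 in H2O wild-type mice. Its groups were close to separate without T3 and overlapped after it. The change was -0.54 over both treatments (adjusted p = 0.173) and -0.76 without T3, with the H2O TRα1+/m mouse higher in 1 of 36 pairs, which was mouse 4 at 7.5 against wild-type mouse 37 at 7.46.

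B2m, the light chain of all class I molecules (chromosome 2, 122147687 to 122153082), had 14.43, 15.28 and 17.10 in T3-exposed TRα1+/m against 15.41, 15.63 and 17.34 in T3-exposed wild-type mice, and 14.50, 14.70 and 15.17 in H2O TRα1+/m against 15.18, 15.23 and 15.48 in H2O wild-type mice. Without T3 the 2 genotypes were next to each other with no overlap. The change was -0.54 ± 0.23 over both treatments (adjusted p = 0.193) and -0.55 without T3 (adjusted p = 0.564).

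**Figure D2:**
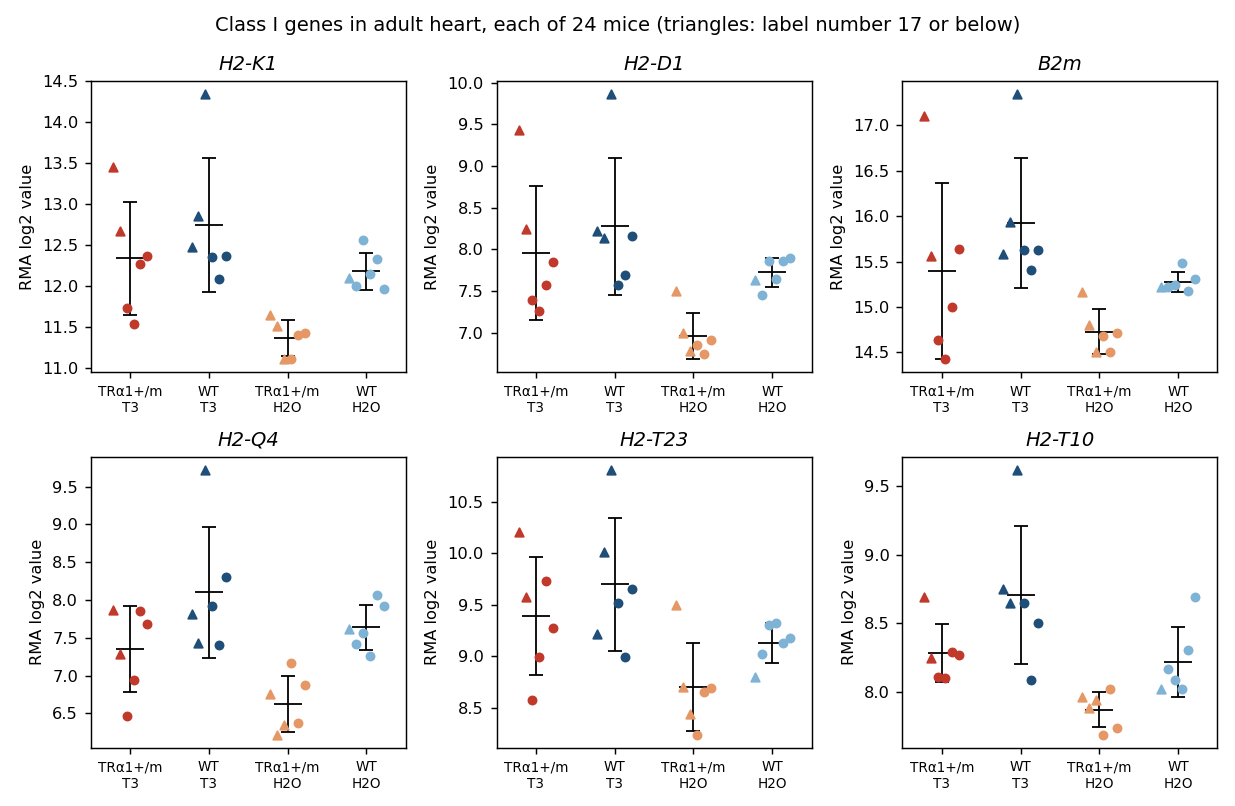
RMA log2 values of 6 class I genes in each of 24 hearts (points, triangles for label numbers of 17 or below), with the mean and SD of each group of 6 mice. H2O TRα1+/m mice lie below all H2O wild-type mice for H2-K1, B2m, H2-Q4 and H2-T10, and T3-exposed mice 15 (wild type) and 16 (TRα1+/m) are the 2 highest for H2-K1, H2-D1, B2m and H2-T23.

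The other heavy chain genes are counted as non-classical and are given by their region of the complex. The T genes include H2-T-ps, whose symbol marks it as a pseudogene. All 5 Q genes had negative genotype changes over both treatments (median -0.38), as did all 6 tested T genes (median -0.33), including H2-T23, the Qa-1 heavy chain that natural killer cell receptors read (-0.36, adjusted p = 0.31), and H2-T10 (-0.38, adjusted p = 0.0754). H2-T23 had 8.58, 9.43 and 10.21 in T3-exposed TRα1+/m against 8.99, 9.58 and 10.81 in T3-exposed wild-type mice, and 8.24, 8.67 and 9.5 in H2O TRα1+/m against 8.80, 9.16 and 9.32 in H2O wild-type mice. H2-T10, which γδ T cells can recognise, had 8.10, 8.26 and 8.69 in T3-exposed TRα1+/m against 8.09, 8.65 and 9.62 in T3-exposed wild-type mice, and 7.69, 7.91 and 8.02 in H2O TRα1+/m against 8.02, 8.13 and 8.69 in H2O wild-type mice. The H2O groups of H2-T10 met at 8.02 without overlapping, and those of H2-T23 overlapped. H2-T22, a close relative of H2-T10, averaged 7.16 ± 0.40 in T3-exposed TRα1+/m against 7.63 ± 0.59 in T3-exposed wild-type mice, and 6.85 ± 0.15 in H2O TRα1+/m against 6.99 ± 0.29 in H2O wild-type mice. H2-T24 averaged 8.86 ± 0.28 in T3-exposed TRα1+/m against 8.74 ± 0.24 in T3-exposed wild-type mice, and 8.97 ± 0.34 in H2O TRα1+/m against 9.23 ± 0.33 in H2O wild-type mice. For both genes the genotypes overlapped under either treatment. The 10 tested genes of the M region, several of which are known from vomeronasal neurons, had a median of -0.16, 7 of the 10 being negative. Their values were mostly close to the limit of 4, such as 2.98 to 4.77 for H2-M10.3. H2-M1 (T3-exposed wild type), H2-M10.1 (H2O wild type) and H2-M10.4 (H2O TRα1+/m) each passed the limit through that group alone. H2-M5 averaged 4.56 ± 0.46 in T3-exposed TRα1+/m against 4.85 ± 0.58 in T3-exposed wild-type mice, and 4.91 ± 0.36 in H2O TRα1+/m against 5.01 ± 0.45 in H2O wild-type mice, and H2-M10.5 4.71 ± 0.27 in T3-exposed TRα1+/m against 4.51 ± 0.22 in T3-exposed wild-type mice, and 4.88 ± 0.24 in H2O TRα1+/m against 4.85 ± 0.20 in H2O wild-type mice. H2-M5 and H2-M10.5 overlapped between the genotypes as well.

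Of the 8 processing genes 0 passed by genotype over both treatments in limma, and 0 had an unadjusted p under 0.05. Tap1, a subunit of the peptide transporter, had 7.52, 8.10 and 8.77 in T3-exposed TRα1+/m against 7.39, 8.10 and 9.11 in T3-exposed wild-type mice, and 7.38, 7.53 and 7.69 in H2O TRα1+/m against 7.19, 7.98 and 8.16 in H2O wild-type mice, and all groups overlapped. Its change was -0.15 (95% interval -0.49 to 0.19), that of Tap2 -0.02 (-0.27 to 0.23) and that of tapasin -0.11 (-0.35 to 0.13), so that a change as large as that of H2-Eb1 lies outside all 3 intervals. Tap2, the other transporter subunit, averaged 8.06 ± 0.21 in T3-exposed TRα1+/m against 8.14 ± 0.36 in T3-exposed wild-type mice, and 7.83 ± 0.21 in H2O TRα1+/m against 7.79 ± 0.32 in H2O wild-type mice. Tapasin averaged 11.88 ± 0.18 in T3-exposed TRα1+/m against 11.81 ± 0.25 in T3-exposed wild-type mice, and 11.70 ± 0.38 in H2O TRα1+/m against 11.98 ± 0.23 in H2O wild-type mice. Neither gene separated the genotypes under either treatment. The immunoproteasome subunits Psmb8, Psmb10 and Psmb9 had -0.35, -0.31 and -0.22 (adjusted p = 0.344, 0.341 and 0.437). Psmb8 had 5.89, 6.61 and 6.86 in T3-exposed TRα1+/m against 5.81, 6.90 and 7.84 in T3-exposed wild-type mice, and 5.52, 6.15 and 6.65 in H2O TRα1+/m against 5.84, 6.44 and 6.99 in H2O wild-type mice. All its groups overlapped. Psmb9 averaged 5.54 ± 0.32 in T3-exposed TRα1+/m against 5.63 ± 0.51 in T3-exposed wild-type mice, and 5.37 ± 0.25 in H2O TRα1+/m against 5.72 ± 0.26 in H2O wild-type mice, and Psmb10 7.39 ± 0.41 in T3-exposed TRα1+/m against 7.70 ± 0.48 in T3-exposed wild-type mice, and 6.96 ± 0.50 in H2O TRα1+/m against 7.27 ± 0.29 in H2O wild-type mice. Both overlapped between the genotypes too. Psme1, an activator subunit, had 0.39 (adjusted p = 0.301), with H2O TRα1+/m mouse 4 at 13.98 and T3-exposed TRα1+/m mouse 17 at 14.20 as its highest values, and its partner Psme2 had -0.10. Psme1 averaged 13.24 ± 0.61 in T3-exposed TRα1+/m against 12.94 ± 0.66 in T3-exposed wild-type mice, and 13.04 ± 0.48 in H2O TRα1+/m against 12.56 ± 0.20 in H2O wild-type mice, and Psme2 10.49 ± 0.43 in T3-exposed TRα1+/m against 10.67 ± 0.34 in T3-exposed wild-type mice, and 10.42 ± 0.40 in H2O TRα1+/m against 10.44 ± 0.18 in H2O wild-type mice. H2-Ke6, the dehydrogenase gene, averaged 8.20 ± 0.73 in T3-exposed TRα1+/m against 7.90 ± 0.59 in T3-exposed wild-type mice, and 7.88 ± 0.51 in H2O TRα1+/m against 7.71 ± 0.44 in H2O wild-type mice, a change of 0.24 (adjusted p = 0.633).

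**Figure D3:**
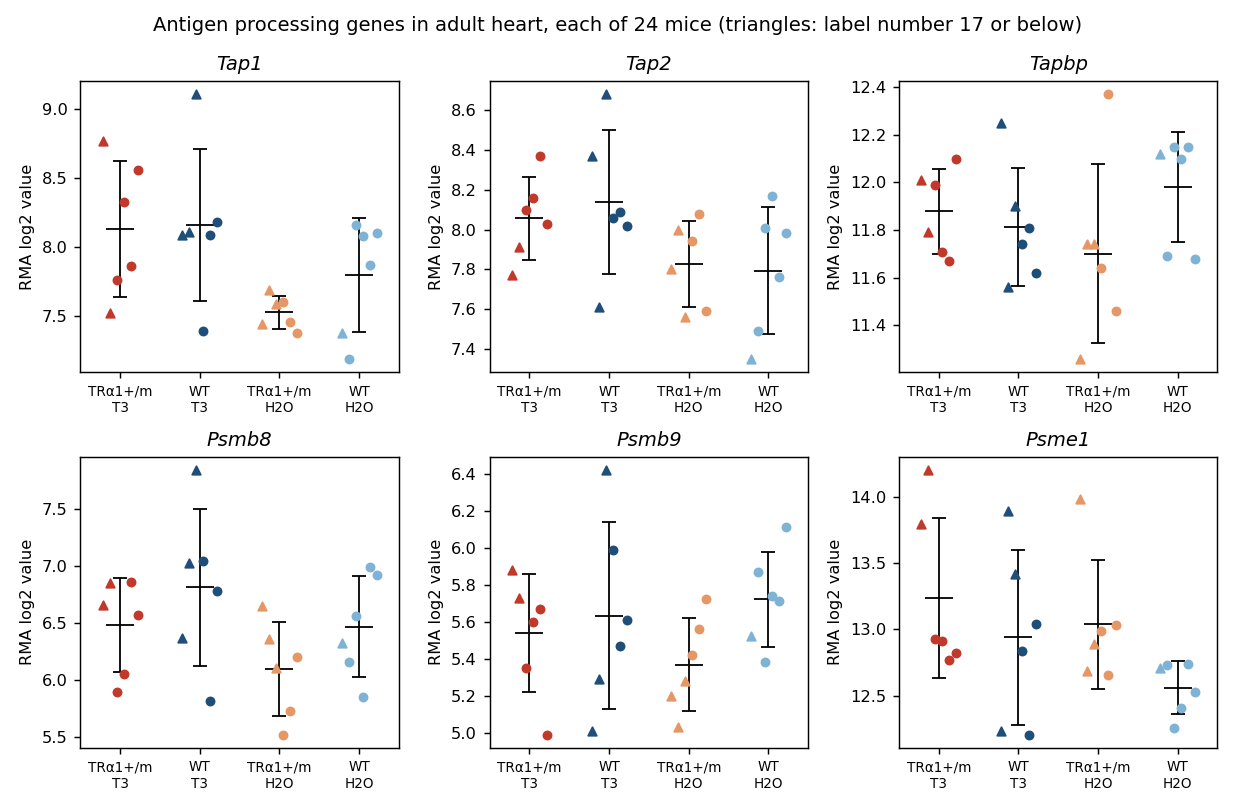
RMA log2 values of 6 antigen processing genes in each of 24 hearts (points, triangles for label numbers of 17 or below), with the mean and SD of each group of 6 mice. The genotypes overlap under both treatments for every gene shown, as for Tap1, with 7.38 to 7.69 in H2O TRα1+/m mice and 7.19 to 8.16 in H2O wild-type mice.

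Over all 43 tested genes the genotype change over both treatments was negative in 37, and the median was -0.25, against -0.01 over all genes tested, of which 51.5% were negative. By class the median was -0.49 for class II, -0.27 for class I and -0.13 for processing. At an unadjusted p under 0.05 there were 14 genes, all lower (6 class II and 8 class I), which is 14 of 43, against 17.9% of all genes in either direction. The count of 5 called genes was 9 with array weights (4.14% of all genes lower), 7 with the label number range as a block (4%), 5 with numbers of 37 and above (2.55%) and 6 without the 5 mice that stand apart (4.14%). In the last 2 settings H2-K1, H2-D1 and B2m were called and H2-Ab1 and H2-DMb2 were not, H2-Q4 was called only in the last, and H2-Eb1 and H2-Aa were called in all 4.

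**Figure D4:**
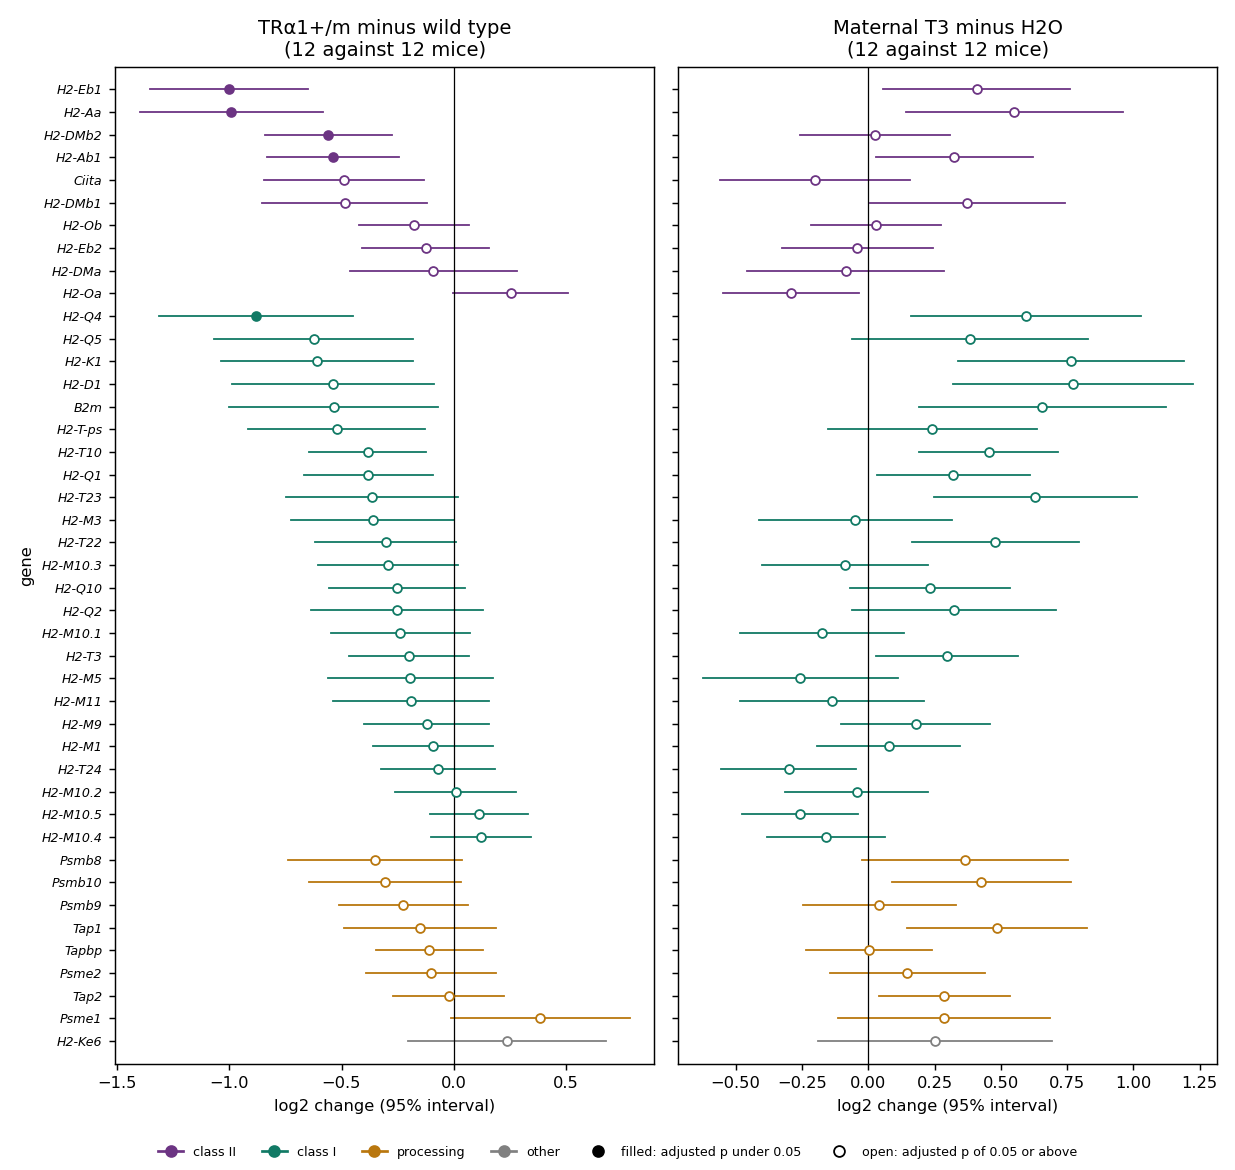
Log2 change (points) with its 95% interval (lines) for the 43 tested genes, ordered by class, for TRα1+/m minus wild type (left, 12 against 12 mice) and maternal T3 minus H2O (right, 12 against 12 mice), filled where the adjusted p is under 0.05. On the left 37 points lie below 0 and 5 are filled, and on the right 30 lie above 0 and none is filled.

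Without T3, 0 of 43 genes passed in the limma fit that shares 1 estimate of spread among all 4 groups, against 1.62% of all genes, although 11 had an unadjusted p under 0.05, all lower, against 11.5% of all genes. The groups nevertheless did not overlap for 6 of the 43 genes: H2-K1, B2m, H2-Q4, H2-T10, H2-Aa and H2-Eb1 were each lower in all 6 H2O TRα1+/m mice than in all 6 H2O wild-type mice. The background was 1.83% of all genes, and 0 of 43 were wholly higher, against 0.924%. The SD of H2-K1 was 0.69 in TRα1+/m and 0.82 in wild type with T3, against 0.22 and 0.23 in the same genotypes with H2O. Without wild-type mouse 15 the SD in T3-exposed wild-type mice was 0.279, and without mouse 16 that in T3-exposed TRα1+/m mice was 0.47. When only the 12 H2O arrays were fitted, 6 of 42 genes passed, all lower, against 1.58% of all genes called lower: H2-Eb1 (adjusted p = 0.00681), H2-K1 (0.0068), H2-Q4 (0.00759), H2-Aa (0.0105), H2-D1 (0.0115) and B2m (0.0474). The same 6 passed when the 5 mice that stand apart were left out of the 4-group fit (1.64% of all genes lower), and H2-Aa, H2-Eb1 and H2-Q4 passed without wild-type mouse 15 alone. Those 3 also passed with array weights (1.74%), H2-Eb1 alone with the label number range as a block (0.954%) and H2-D1 alone with numbers of 37 and above (0.497%).

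After maternal T3, H2-Eb1 and H2-Aa were lower in TRα1+/m mice and made 2 of 43, 4.65%, against 1.66% of all genes called lower, 1.13% higher and 2.79% in either direction. A further 10 genes had an unadjusted p under 0.05, so 12 in all, each lower, against 13.7% of all genes. H2-Eb1 was the 1 gene of 43 whose groups did not overlap, against 1.08% of all genes wholly lower and 0.818% wholly higher. In the fit of the 12 T3 arrays alone neither passed (0.921% of all genes lower), H2-Eb1 having an adjusted p of 0.0591, and with numbers of 37 and above H2-Eb1 alone did (0.908%).

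After maternal T3 the classical class I genes had higher means than with H2O, but none passed the test. Over both genotypes (12 T3-exposed against 12 H2O mice) 0 of 43 genes passed in limma, against 0.0101% of all genes, and 19 had an unadjusted p under 0.05, of which 16 were higher and 3 lower, against 16.3% of all genes. H2-K1 and H2-D1 each had a change of 0.77 (adjusted p = 0.123 and 0.134), B2m 0.66 (adjusted p = 0.171), H2-T23 0.63 (adjusted p = 0.14), H2-Q4 0.59 (adjusted p = 0.183), H2-Aa 0.55 (adjusted p = 0.191), H2-T10 0.45 (adjusted p = 0.132) and Tap1 0.49 (adjusted p = 0.165). The median was 0.24 over class I, 0.03 over class II and 0.29 over processing genes, where all 8 were positive, against -0.01 over all genes. Without wild-type mouse 15 these medians were 0.14, -0.03 and 0.24, and the changes of H2-K1, H2-D1 and B2m were 0.61, 0.61 and 0.51.

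In H2O mice the 3 classical class I genes together (mean log2 of H2-K1, H2-D1 and B2m) spanned 10.80 to 11.44 in the mutants and 11.56 to 11.89 in the wild type. In T3-exposed mice they spanned 11.07 to 13.33 in the mutants and 11.73 to 13.84 in the wild type, with the top values in mouse 16 and mouse 15. The T3 difference was also taken within each set of label numbers, as the mean of the difference in TRα1+/m and that in wild-type mice. For H2-K1 it was 0.36 within numbers of 37 and above (7 T3-exposed and 8 H2O mice). Within numbers up to 17 it was 1.38 (5 and 4 mice), with 1 wild-type H2O mouse and with mice 15 and 16 among the T3-exposed. For B2m these differences were 0.28 and 1.29. Whether the number stands for a batch is not given, and its part in the T3 values was not tested.

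Within the genotypes, 0 of 43 genes passed for maternal T3 in TRα1+/m mice, against 0.0859% of all genes, and 0 of 43 in wild-type mice, against 0.00505%. At an unadjusted p under 0.05 there were 8 genes in TRα1+/m mice, all higher, and 9 in wild-type mice, 7 higher and 2 lower, against 8.31% and 11% of all genes. H2-D1 had 0.99 in the mutants and 0.55 in the wild type, H2-K1 0.97 and 0.56, and B2m 0.67 and 0.65. Without mouse 15 the wild-type changes were 0.23 for H2-D1, 0.24 for H2-K1 and 0.36 for B2m, and the class I median in wild-type mice was 0.11, against 0.29 with it. Without mouse 16 the changes in the mutants were 0.70 for H2-D1, 0.75 for H2-K1 and 0.32 for B2m. H2-T10 was the 1 gene wholly higher in T3-exposed than in H2O TRα1+/m mice (8.10 to 8.69 against 7.69 to 8.02), against 0.227% of all genes, and in wild-type mice no gene of the 43 was, against 0.535%. The T3 change of H2-Eb1 was 0.24 in the mutants and 0.58 in the wild type, and that of H2-Aa 0.44 and 0.66. Without mouse 15 the wild-type values were 0.27 for H2-Eb1 and 0.31 for H2-Aa. Both T3 comparisons were made against H2O mice of the same genotype, so the genotype and T3 comparisons share their arrays.

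The difference between those T3 changes, the interaction, passed in 0 of 43 genes and in 0% of all genes. At an unadjusted p under 0.05 it did so in 1 of 43, H2-M1 (-0.80), against 4.19% of all genes. H2-M1 averaged 3.62 ± 0.26 in T3-exposed TRα1+/m against 4.11 ± 0.32 in T3-exposed wild-type mice, and 3.94 ± 0.40 in H2O TRα1+/m against 3.63 ± 0.28 in H2O wild-type mice. In 17 of 24 mice it was at or below the limit of 4. It was tested only through the mean of the T3-exposed wild-type mice, a group that enters the interaction, so no support is drawn from its value. The interaction was 0.44 for H2-D1 (95% interval -0.46 to 1.35), 0.41 for H2-K1 (-0.45 to 1.26), -0.35 for H2-Eb1 (-1.05 to 0.36) and -0.21 for H2-Aa (-1.03 to 0.61), intervals wide enough to hold differences as large as the changes themselves.

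Some of these genes varied together around their group means, with all 24 mice pooled, while over all pairs the correlation was low. Over all 903 pairs of the 43 genes, deviations from the group means had a median correlation of 0.15 (-0.6 to 0.94), with 611 pairs positive, and the median was 0.07 within class I and 0.24 within class II. They correlated at 0.93 between H2-K1 and H2-D1 over the 24 mice, at 0.43 to 0.70 among H2-Aa, H2-Ab1 and H2-Eb1, and at a median of 0.65 among H2-K1, H2-D1, B2m, H2-T23, H2-Q4, Tap1 and Psmb8. Among the M genes the median was 0.02. Ciita correlated at -0.1 with H2-Ab1, 0.03 with H2-Eb1 and 0.24 with H2-Aa. All points of a gene come from the same 24 arrays, which the genes share. How far these correlations rest on mice 15 and 16 was not tested, and they do not describe any group taken alone. Wild-type mouse 15 had 14.34 for H2-K1, 17.34 for B2m, 10.78 for H2-Aa and 10.15 for H2-Eb1, the highest of all 24 mice in each. TRα1+/m mouse 16 came second for H2-K1 (13.45) and B2m (17.10) but had 8.39 for H2-Aa and 7.70 for H2-Eb1.

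Genes around the antigen presentation pathway were read from lists written from general knowledge. The counts are set against the 3.7% of all genes called lower and 2.59% called higher over both treatments, and 17.9% at an unadjusted p under 0.05. Of 10 tested genes of interferon gamma signalling, 2 were lower by genotype over both treatments and 0 higher: Irf1, a transcription factor that switches on class I genes, by a change of -0.63 (adjusted p = 0.0168), and Ifngr2, a chain of the interferon gamma receptor, by -0.39 (adjusted p = 0.0135). The list's median was -0.06. Of 6 other genes of class I loading, Tapbpl, the tapasin-like peptide editor, was lower (-0.31, adjusted p = 0.0493), and of 5 other genes of class II processing Ctsb, a lysosomal protease, was lower (-0.40, adjusted p = 0.00698). Of 7 genes of the class II enhanceosome, the proteins that bind the X and Y boxes, 0 passed over both treatments, with 2 at an unadjusted p under 0.05, both higher. Of 4 proteasome genes that are not interferon-induced, Psme4, another activator, was lower (-0.81, adjusted p = 3.51e-05).

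Markers of macrophages, which carry class II, were read beside these genes. Of 11 macrophage markers on the array, 10 had negative changes over both treatments (median -0.34), against 51.5% of all genes, and 3 were lower, against 3.7% of all genes: Csf1r, the receptor that keeps macrophages alive (-0.66, adjusted p = 0.0058), C1qb, a complement chain (-0.95, adjusted p = 0.0272), and Cx3cr1, a chemokine receptor (-0.64, adjusted p = 0.0314). Their summed level on the linear scale is weighted towards the brightest probe set, which was that of Lyz2. It was 6440 to 28300 in T3-exposed TRα1+/m against 8870 to 19900 in T3-exposed wild-type mice, and 5440 to 6800 in H2O TRα1+/m against 8420 to 10700 in H2O wild-type mice. Their mean log2 value was 7.95 to 9.63 against 8.41 to 9.02 with T3, and 7.80 to 8.34 against 8.35 to 8.73 with H2O. The H2O groups did not overlap, as for H2-Aa and H2-Eb1, and the part of this in the class II and class I differences was not tested. Mouse 16, a TRα1+/m mouse, had the highest macrophage sum of all 24 (28300). Its neutrophil sum was 1310, against at most 508 in the other mice of its group and at most 240 in the other groups. Its class II mean (H2-Aa, H2-Ab1, H2-Eb1) was 8.32, the highest of its group. The T3-exposed wild-type mice had 8.34 to 10.32, so that it lay just below the lowest of them.

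Markers of other cells were read in the same way, against the same 3.7% of all genes lower, 2.59% higher and 17.9% at an unadjusted p under 0.05. Of 6 tested dendritic cell markers 0 passed over both treatments, with 0 at an unadjusted p under 0.05, and Clec9a was above 4 in no mouse. Their summed level was 230 to 311 in T3-exposed TRα1+/m against 238 to 366 in T3-exposed wild-type mice, and 267 to 325 in H2O TRα1+/m against 248 to 377 in H2O wild-type mice. Of 4 B cell markers Pax5 was lower (-0.61, adjusted p = 0.0153), with a mean of 3.64 in TRα1+/m against 4.26 in wild-type mice, around the limit. It passed the limit only through the wild-type groups, with means of 4.32 (T3) and 4.20 (H2O). Its being tested thus rested on the groups where it is high, and no support is drawn from its call. Summed B cell levels were 72.9 to 102 in the mutants and 74.4 to 139 in the wild type. Of 8 endothelial markers, Tie1 and Vwf were lower (-0.61 and -0.94, adjusted p = 0.000532 and 2.58e-05) and the list's median was -0.14, with summed levels of 56100 to 112000 in T3-exposed TRα1+/m against 60000 to 114000 in T3-exposed wild-type mice, and 65500 to 96000 in H2O TRα1+/m against 88000 to 107000 in H2O wild-type mice. Of 4 fibroblast markers Col1a1 was higher (0.78, adjusted p = 0.011). None of 6 T cell, 4 natural killer cell, 3 neutrophil and 5 lung markers passed in limma, with 1, 1, 1 and 0 at an unadjusted p under 0.05. Thymus markers summed to 156 to 302 in T3-exposed TRα1+/m against 121 to 172 in T3-exposed wild-type mice. With H2O they summed to 146 to 183 against 108 to 179. Cd1d1 among them had the higher mean in TRα1+/m mice, 6.68 against 5.90 with T3 and 6.06 against 5.62 with H2O. In T3-exposed TRα1+/m mice it was the brightest of the list, before Ptcra at 5.74, so the sum there is weighted towards Cd1d1. The sum is not taken as a measure of thymus tissue. Rag2 had the lower mean, 4.18 against 4.62 and 4.62 against 4.81. Ptcra was higher by less in both, and Dntt was lower with T3 and higher with H2O. These means are given without a test. The summed lung level was 574 in H2O TRα1+/m mouse 4, the mouse with the highest H2-D1 and Psme1 of its group, and 425 in T3-exposed wild-type mouse 13, against 88.2 to 208 in the other 22 mice. The part of these cells in the MHC values was not tested.

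**Figure D5:**
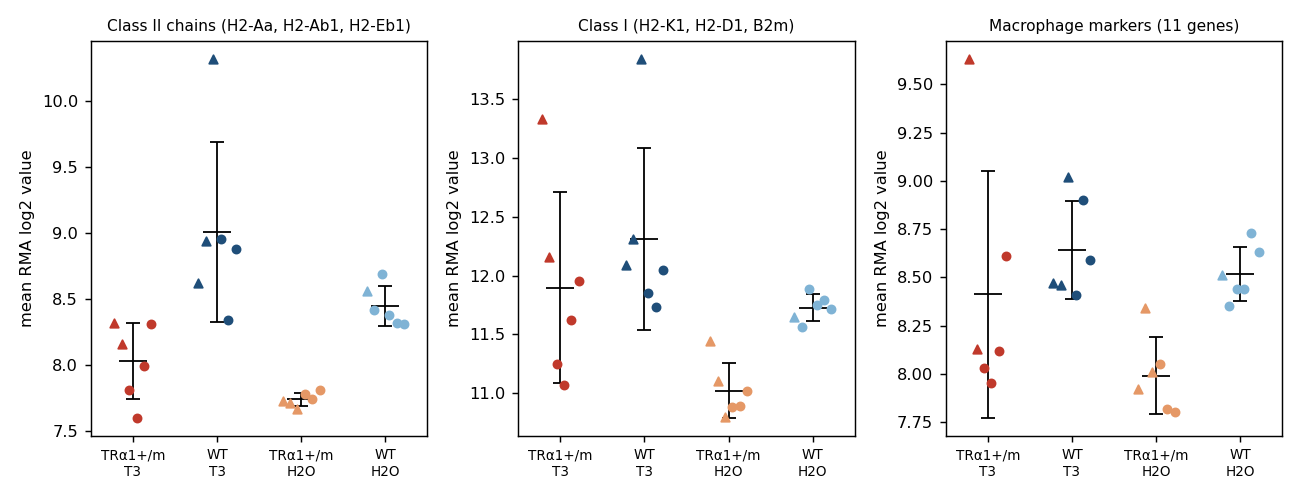
Mean RMA log2 value in each of 24 hearts of 3 class II chains (left), of H2-K1, H2-D1 and B2m (middle) and of 11 macrophage markers (right), with the mean and SD of each group of 6 mice and triangles for label numbers of 17 or below. The class II mean is 7.67 to 7.81 in H2O TRα1+/m mice and 8.31 to 8.69 in H2O wild-type mice. Mouse 16 (TRα1+/m, T3) is the highest of all mice on the right and the highest of its own group on the left.

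As a mean of H2-Aa, H2-Ab1 and H2-Eb1, class II was 7.60 to 8.32 in T3-exposed TRα1+/m against 8.34 to 10.32 in T3-exposed wild-type mice, and 7.67 to 7.81 in H2O TRα1+/m against 8.31 to 8.69 in H2O wild-type mice. Within each treatment the genotypes did not overlap. The genotype difference was also taken within each set of label numbers, as the mean of the difference with T3 and that with H2O. Within numbers of 37 and above it was -0.91 for H2-Eb1 and -0.73 for H2-Aa (7 TRα1+/m and 8 wild-type mice). Within numbers up to 17 it was -1.20 and -1.24 (5 and 4 mice). There the wild type had 1 H2O mouse, and 3 T3-exposed mice of which mouse 15 was the highest for both genes. Both genes were lower in both sets. For H2-DMb2 the difference was -0.30 and -0.82 in the 2 sets, and for H2-Q4 -0.74 and -0.96. In none of the 43 genes did the fit find a difference between the 2 sets of label numbers, which it did in 2.93% of all genes. That fit gave all groups the same difference between the sets, and a difference in some of the groups only was not tested. The median of numbers of 37 and above minus numbers up to 17 was -0.12 over the 43 genes, -0.17 over class I, -0.08 over class II and -0.23 over processing, against 0.01 over all genes.

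Of the 45 genes 40 lie on chromosome 17 between 33919478 and 37274485 (GRCm38.p6). Of 113 other genes tested in that interval, 1 was lower and 2 were higher by genotype over both treatments, 2.65%, with a median of -0.01, against 5 of the 43 MHC and processing genes. Its called genes were Ddah2, 2310061I04Rik and Atat1.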

How the data were processed

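Total RNA of whole hearts was hybridised to Clariom S mouse arrays. The authors deposited log2 values, normalised with RMA in Transcriptome Analysis Console 4.0.1. RMA gives all arrays 1 distribution, so values are relative within an array, and depth has no meaning here. The number of arrays limits the precision. Probe sets were named through the platform annotation, with 1 per symbol (highest mean over 24 arrays). Control probe sets were left out. A gene was tested where a group mean exceeded 4 (19801 genes).

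A model with 4 group means was fitted across all of them (limma 3.58.1, R 4.3.3, eBayes), with 7 contrasts and Benjamini-Hochberg adjustment over all genes at 0.05. The fit was tested on simulated data: in 5 runs with 200 of 19801 genes changed in the genotype contrast without T3, 74.9% were found at 2-fold and 11.7% at 1.5-fold. Named genes were those called in any contrast, core genes of each class and the 3 largest rises and falls. The members, lists and tests were chosen with earlier results of these data known. Alternatives were filters, weights, blocks, subsets and leaving out each mouse.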

Additional observations from a re-analysis of the deposited data

Results flagged for a closer look

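Of 108 sets of 6 mice (27 named genes in 4 groups), 8 held a mouse farther from the next than Dixon's 95% critical share of the group's range, which chance gives in about 1 of 20 groups. In T3-exposed wild-type mice it was mouse 15 in all cases, with H2-D1 at 9.86 (the others 7.58 to 8.22), B2m at 17.34 (15.41 to 15.94), H2-Aa at 10.78 (8.30 to 9.13), H2-K1 at 14.34 (12.08 to 12.85) and H2-Eb1 at 10.15 (7.97 to 8.77). In H2O TRα1+/m mice it was mouse 4, with H2-D1 at 7.5 (6.75 to 7.0) and Psme1 at 13.98 (12.66 to 13.03). In T3-exposed TRα1+/m mice it was mouse 17, with H2-M10.5 at 5.24 (4.49 to 4.68). All 3 mice are among the 5 that stand apart on the first principal component.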

How the results depend on the processing

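No paired analysis was possible because the groups share no replicate numbers. Without T3, 0 genes passed, against 3 with array weights, 1 with the label number range as a block, 1 with numbers of 37 and above only (H2-D1), 6 without the 5 mice that stand apart, 6 with only the arrays compared, and 0 to 3 when each mouse was left out (3 without wild-type mouse 15, T3). After maternal T3, 2 passed, against 1 with numbers of 37 and above, 0 with only the arrays compared, and 1 to 3 when each mouse was left out. Over both treatments 5 passed, against 9 with array weights and 5 to 9 when each mouse was left out (9 without TRα1+/m mouse 16, T3). With a filter at 5, the medians were -0.44 for class I by genotype without T3, 0.44 for class II by T3 in wild-type mice and 0.32 for class II by T3 over both. With numbers of 37 and above they were -0.19 for class II by genotype after T3, 0.0297 for class I and 0.0475 for processing by T3 in wild-type mice, and without the 5 mice -0.21 for class II by genotype after T3 and 0.0409 for processing by T3 in wild-type mice. The cause was not tested. Values of named genes kept their direction and side of the threshold in 6054 fits, changed sign while uncalled in 200, gained a call in 35 and lost one in 12. No called gene changed sign.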
